A study of Mus musculus with 6 samples.

Results

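DNA topoisomerases and the tyrosyl-DNA phosphodiesterases that act with them were followed in sorted mouse pre-B cells on expression arrays, with the division gene Mki67 beside them. The 9 genes were chosen by name, with their values on these arrays already known: the 6 topoisomerase genes Top2a, Top2b, Top1, Top1mt, Top3a and Top3b, the 2 phosphodiesterase genes Tdp1 and Tdp2, and Mki67. Each had 1 probe set named for it among those deposited, a probe set being a group of short array oligonucleotides against a single transcript. Thus 9 of the 23913 probe sets in the table, or 9 of 11271 genes tested, are described. Another 5699 carried no symbol, and whether any of them reads these genes was not examined. The table holds fewer probe sets than the array, and whether those left out read these genes is not known here. Ccna2, the cyclin A2 gene, was added as a second reference for cell division. Since the choice drew on the contrast of genotypes, the differences of these genes are given as a description with no test.

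Pre-B cells, gated as B220+IgM-CD43- and freed of dead cells, came from bone marrow of mice aged 9 months. The Mef2c-deficient group held 3 samples of genotype Vav-Cre Mef2cfl/fl, in which the Vav promoter drives Cre recombinase in blood-forming cells and so removes Mef2c, the gene of a MADS-box transcription factor, before the B lineage arises. The control group held 3 samples, labelled only as control, and per the study's methods such mice could carry floxed Mef2c alleles without Cre, or Vav-Cre with a single floxed allele. Mef2c itself was not analysed here, and nothing used here names the animals behind the samples, and p-values below therefore reflect only how far these samples spread.

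Topoisomerases cut DNA, let strands pass or turn, and seal the cut again, which relieves the twist that builds up where DNA is copied or transcribed and separates linked chromosomes before they are pulled apart. Type I enzymes (Top1, Top1mt, Top3a, Top3b) cut a single strand, whereas type II enzymes (Top2a, Top2b) cut both strands. During the cut the enzyme is bound to DNA through a tyrosine, and if sealing fails the trapped enzyme is a lesion, which Tdp1 removes mainly after Top1 and Tdp2 after type II enzymes. Top2a is known as a gene of dividing cells, with transcript and protein most abundant as cells approach mitosis, and Top2b as its counterpart in dividing and resting cells alike. Pre-B cells divide while they expand and then stop as they rearrange their light chain genes.

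Values are log2 of the deposited intensities, and a difference is the mean of Mef2c-deficient minus that of control arrays, with a standard error (SE) from the spread within each group. The median deposited value lay between 277 and 285 in the Mef2c-deficient arrays and between 236 and 268 in the control arrays. BioB, a bacterial transcript added to each array in fixed amount, had mean log2 values of 17.06, 15.97 and 15.50 in Mef2c-deficient replicates 1 to 3 and of 14.46, 14.58 and 14.26 in control replicates 1 to 3. The median difference over all genes tested was -0.36. Markers of pre-B cells (11 of 13 measured) summed to log2 values of 20.42 to 21.09 in Mef2c-deficient and 20.92 to 21.30 in control arrays, with Cd79a, Cd79b and Cd24a, the brightest of them, above 17.7 on every array. Their mean log2 value was lower in each Mef2c-deficient array (15.94 to 16.11) than in each control array (16.75 or more), and 5 of the 11 were lower and 0 higher in every same-number pair, the 5 including Rag1 (17.28, 16.92 and 15.62 in Mef2c-deficient and 17.82, 17.79 and 17.76 in control replicates 1 to 3). Mef2c-deficient replicate 3 stood apart, with Pearson's r across probe sets of 0.868 and 0.877 with the others of its group, against 0.957 to 0.986 among control arrays, and it held the highest sums of plasmacytoid dendritic, neutrophil, monocyte, T, NK and erythroid markers.

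Top2a, the type II enzyme of dividing cells, was the only gene of the 9 with a higher mean in Mef2c-deficient pre-B cells. Its probe set 1427724_at had log2 values of 8.80, 8.30 and 9.19 in Mef2c-deficient replicates 1 to 3, against 7.08, 7.05 and 7.55 in control replicates 1 to 3. All 3 Mef2c-deficient arrays lay above all 3 control arrays. The means were 8.76 ± 0.45 in Mef2c-deficient and 7.23 ± 0.28 in control cells (SD, n = 3 each), a difference of 1.54 (SE 0.31), which was 1.89 above the all-gene median. On the deposited scale this was 2.90-fold. The base of the exponent that took the values off the log scale is not settled, and with base e the same values would stand for 2.09-fold. Replicates of the same number, which deviated together across genes, gave differences of 1.72, 1.25 and 1.64 for numbers 1 to 3. In RNA of sorted bulk cells, a change in the share of cells that carry a transcript and a change in RNA per cell cannot be told apart.

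**Figure D1:**
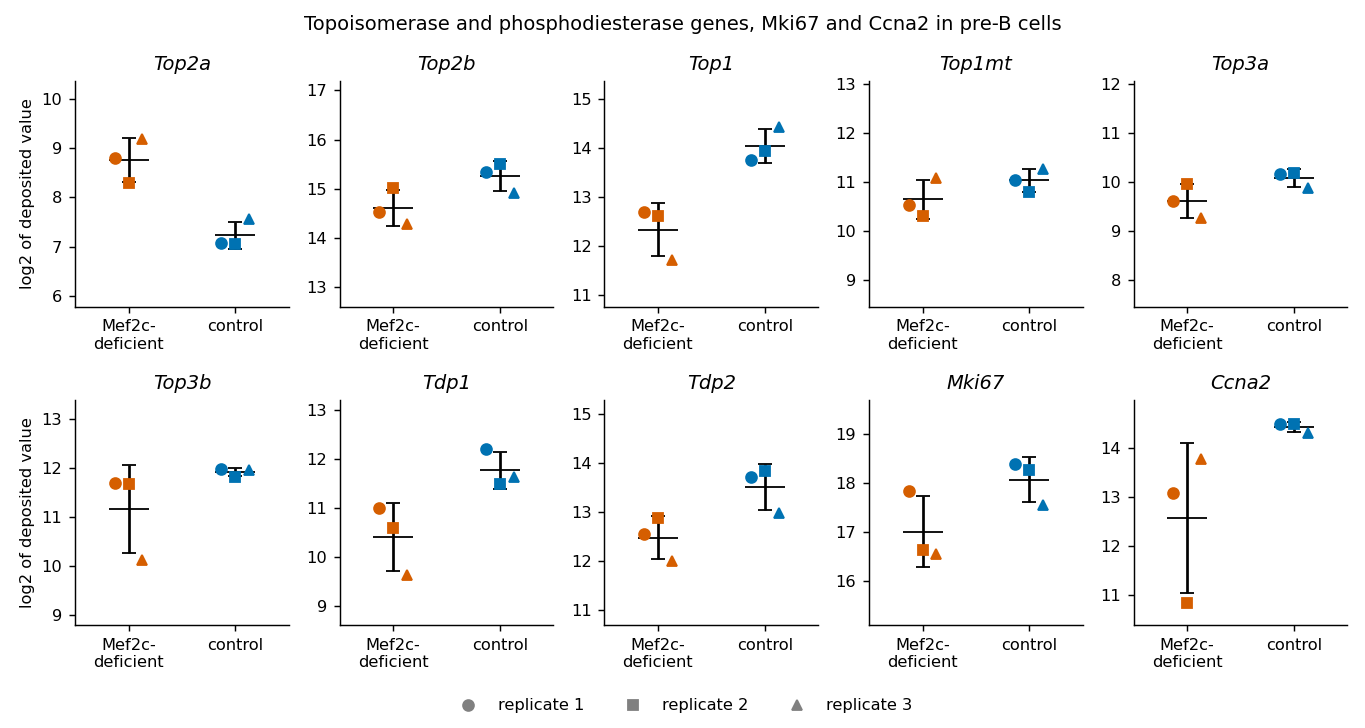
Log2 of the deposited value (vertical axes, each spanning the same range) of the 9 genes and Ccna2 in 3 Mef2c-deficient (orange) and 3 control arrays (blue), with group means and SDs as black lines and the replicate number as the symbol. Top2a had means of 8.76 in Mef2c-deficient and 7.23 in control cells, while Top1 had means of 12.33 in Mef2c-deficient and 14.04 in control cells and every other gene shown also had the lower mean in Mef2c-deficient cells.

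The Top2a signal was dim and came from the 1 deposited probe set named for it, and this limits its reading. Deposited values were 445, 315 and 584 in Mef2c-deficient replicates 1 to 3 and 135, 132 and 188 in control replicates 1 to 3. The control mean of 7.23 lay below the filter for low values, set at a log2 of 7.26, so that Top2a entered the set of genes tested only through its Mef2c-deficient arrays. Of the 11271 genes tested, 162 (1.44%) had a difference at least as high as that of Top2a. With all 17372 named genes ranked by mean level and divided into 10 bins of like size, from bin 1, the dimmest, to bin 10, Top2a fell in bin 5 (log2 of 7.67 to 8.57), where the median difference was 0.30 and 66.8% of genes had the higher mean in Mef2c-deficient cells. In that bin 25 of 1737 genes had a difference as high as that of Top2a or higher. The bioB control, whose 3 Mef2c-deficient arrays also lay above its 3 control arrays, differed by 1.75 (SE 0.47) and bioC by 1.54 (SE 0.37), and their part in the Top2a difference was not tested.

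**Figure D2:**
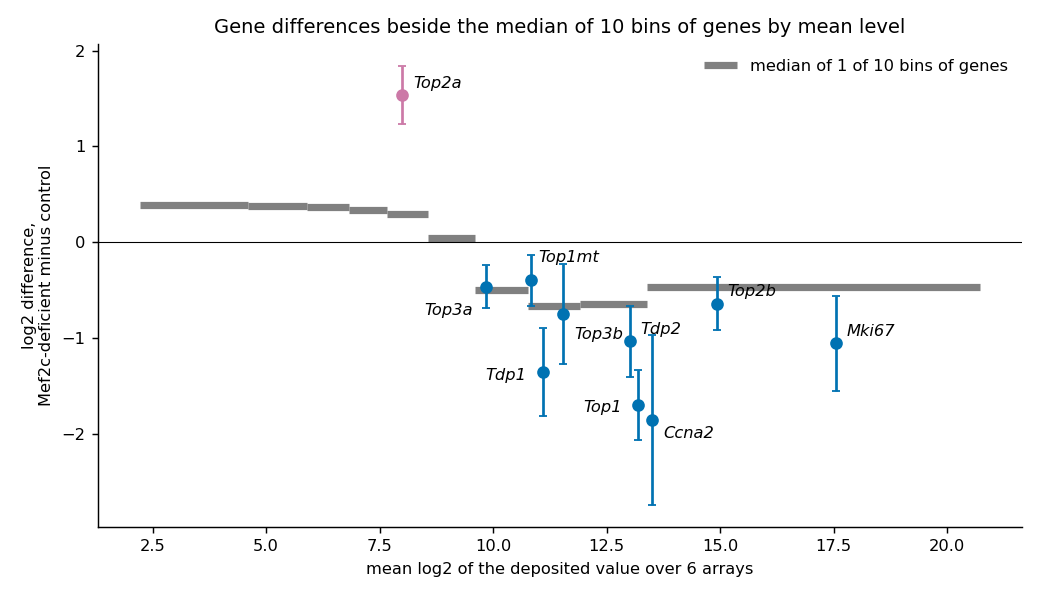
Log2 difference, Mef2c-deficient minus control (vertical axis), against the mean log2 of the deposited value over 6 arrays (horizontal axis) for the 9 genes and Ccna2, with SE, and the median difference of each of 10 bins of 17372 named genes as a grey bar spanning the bin. Medians ran from 0.39 in bin 1 to -0.67 in bin 8, and Top2a stood at 1.54 over a median of 0.30.

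The brighter genes sat in bins with medians of the other sign. Top3a lay in bin 7 (median -0.50), Tdp1, Top1mt and Top3b in bin 8 (-0.67), Tdp2 and Top1 in bin 9 (-0.65), and Top2b, Mki67 and Ccna2 in bin 10 (-0.47). Top3a at -0.46 and Top3b at -0.75 lay close to the medians of their bins, whereas Top1 at -1.70 and Tdp1 at -1.36 lay well below theirs.

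Both division references had the lower mean in Mef2c-deficient cells. Mki67, whose protein coats mitotic chromosomes and marks dividing cells, was read by 1426817_at at 17.85, 16.63 and 16.57 in Mef2c-deficient replicates 1 to 3, against 18.39, 18.28 and 17.56 in control replicates 1 to 3. The groups overlapped, since Mef2c-deficient replicate 1 exceeded control replicate 3, but same-number pairs differed by -0.54, -1.65 and -0.99. The means were 17.02 ± 0.72 in Mef2c-deficient and 18.08 ± 0.45 in control cells (SD, n = 3 each), a difference of -1.06 (SE 0.49). Ccna2, whose cyclin drives DNA replication and entry into mitosis, had values of 13.08, 10.85 and 13.79 in Mef2c-deficient replicates and 14.49, 14.50 and 14.31 in control replicates (1417910_at). Each Mef2c-deficient array lay below the lowest control array, with replicate 2 far below the other Mef2c-deficient arrays, and the difference was -1.86 (SE 0.89), or -0.996 without that array.

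A difference between genes on the same array does not move with the scaling constant of that array, but it can hold a shift that depends on level. The median difference was 0.30 in the bin of Top2a and -0.47 in the bin of Mki67 and Ccna2. Top2a minus the mean of Mki67 and Ccna2, set to an average of 0 in control arrays, was 2.36, 3.59 and 3.04 in Mef2c-deficient replicates 1 to 3 and -0.33, -0.31 and 0.65 in control replicates 1 to 3. The groups did not overlap, and the group difference was 2.99 (SE 0.48) as deposited and 2.40 after scaling by cyclic loess. As deposited, the group difference was 2.59 (SE 0.65) against Mki67 alone and 3.39 (SE 0.68) against Ccna2 alone. The order of the Mef2c-deficient arrays depended on the reference: replicate 3 was highest against Mki67, at 3.47, and replicate 2 against Ccna2, at 4.65.

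**Figure D3:**
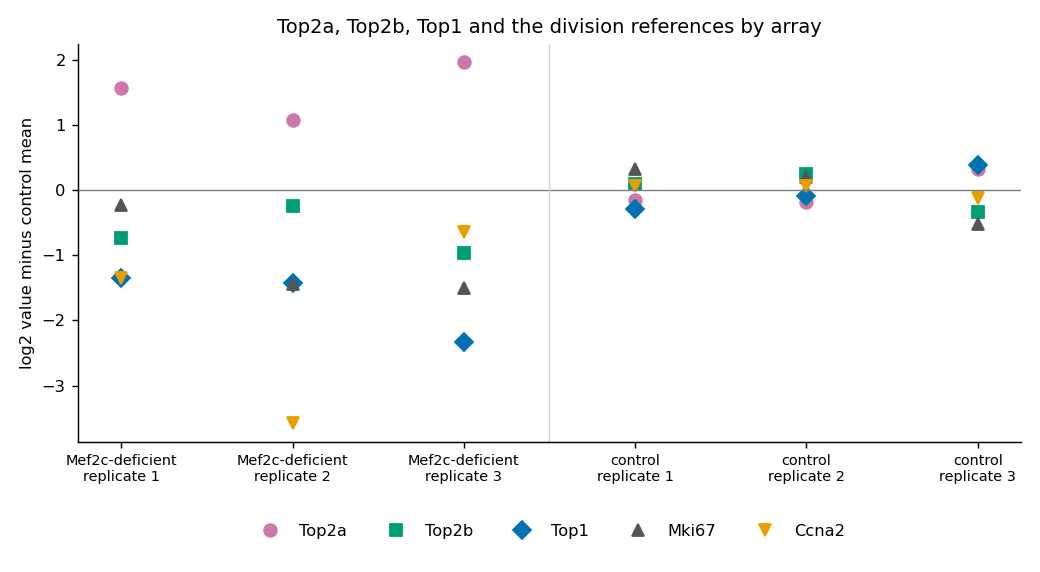
Log2 value of Top2a, Top2b, Top1, Mki67 and Ccna2 on each array (horizontal axis) minus the mean of the gene over the 3 control arrays (vertical axis). Top2a lay between 1.07 and 1.96 on the Mef2c-deficient arrays, where the other 4 genes lay between -0.22 and -3.58.

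Top2a and Mki67, both known as genes of the division programme, had group differences of opposite sign on these arrays. Their promoters are shown to set their sequence side by side with that of Top2b, and no link between sequence and array values was tested. The sequences are the 250 bases before the start site used for each gene in a table of RefSeq promoters (GRCm38.p6), written along the strand of the gene, from chr11:99024190-99024439 (minus strand) for Top2a, chr7:135716380-135716629 (minus strand) for Mki67 and chr14:16364956-16365205 (plus strand) for Top2b. The outermost RefSeq boundary of the gene lies farther upstream for 2 of them, so that the last 10 bases of the Top2a window and the last 71 of the Mki67 window fall inside it, with no marked motif in them. Capitals mark CCAAT, the core bound by the factor NF-Y, and TTTGAA, the core of the cell cycle homology region bound by repressor complexes of resting cells, on either strand, where the opposite strand reads ATTGG and TTCAAA.
Top2a: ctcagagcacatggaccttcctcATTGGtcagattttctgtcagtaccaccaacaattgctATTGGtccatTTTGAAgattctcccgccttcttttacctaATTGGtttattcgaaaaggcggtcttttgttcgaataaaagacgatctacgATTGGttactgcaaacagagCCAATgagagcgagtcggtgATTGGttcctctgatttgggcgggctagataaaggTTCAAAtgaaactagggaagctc
Mki67: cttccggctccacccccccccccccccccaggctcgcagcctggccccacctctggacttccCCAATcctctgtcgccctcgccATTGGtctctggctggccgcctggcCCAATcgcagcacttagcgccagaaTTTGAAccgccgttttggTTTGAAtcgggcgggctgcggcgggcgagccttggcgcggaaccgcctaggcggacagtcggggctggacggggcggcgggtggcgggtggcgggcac
Top2b: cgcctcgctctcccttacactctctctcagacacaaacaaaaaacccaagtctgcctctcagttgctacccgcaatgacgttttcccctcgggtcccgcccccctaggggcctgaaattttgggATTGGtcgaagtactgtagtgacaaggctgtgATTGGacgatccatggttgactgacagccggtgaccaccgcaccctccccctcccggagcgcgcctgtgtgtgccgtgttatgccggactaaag
The Top2a promoter held 6 matches to CCAAT, of which 5 lay on the opposite strand, and 2 to TTTGAA. The Mki67 promoter held 3 and 2 matches, and that of Top2b held 2 matches to CCAAT and 0 to TTTGAA. The promoters differed in base composition, with a GC content of 43.6% for Top2a, 71.6% for Mki67 and 57.6% for Top2b.

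Both strands of these windows were also searched for TTTNNCGC, a core of sites for E2F factors, and for the MEF2 consensus, and no motif overlapped another. Of 32851 promoters of the same length, 33.8% held CCAAT, 15.99% TTTGAA, 4.28% TTTNNCGC and 2.92% the MEF2 consensus, and 276 (0.840%) held 4 or more CCAAT matches as that of Top2a did. Promoters of 6 of the 9 genes were in the table. The other 3 of these were those of Top1 with none of the motifs, Tdp1 with 1 TTTGAA and Top3b with 1 CCAAT, while TTTNNCGC and the MEF2 consensus had 0 matches in the 6 windows. A match is a description of the letters in the window, and Top1mt, Top3a and Tdp2 are named only.

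Top2b, the other type II enzyme, differed from Top2a in direction. Probe set 1416731_at had values of 14.52, 15.01 and 14.29 in Mef2c-deficient replicates 1 to 3 and of 15.34, 15.49 and 14.90 in control replicates 1 to 3. Mef2c-deficient replicate 2 lay above control replicate 3, so the groups overlapped, although each same-number pair was lower in the Mef2c-deficient array, with differences of -0.83, -0.49 and -0.62. The means were 14.60 ± 0.37 in Mef2c-deficient and 15.25 ± 0.31 in control cells (SD, n = 3 each), with a difference of -0.64 (SE 0.28). Top2a minus Top2b on the same array differed by 2.18 (SE 0.58) between Mef2c-deficient and control cells, with groups that did not overlap. The median difference was 0.30 in the bin of Top2a and -0.47 in that of Top2b.

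Top1, the main enzyme that relaxes nuclear DNA ahead of polymerases, had the lowest difference of the 9 genes. Probe set 1423474_at had values of 12.69, 12.60 and 11.71 in Mef2c-deficient replicates 1 to 3, against 13.75, 13.94 and 14.42 in control replicates 1 to 3. The highest Mef2c-deficient array lay 1.06 below the lowest control array. The means were 12.33 ± 0.54 in Mef2c-deficient and 14.04 ± 0.34 in control cells (SD, n = 3 each), a difference of -1.70 (SE 0.37). Mef2c-deficient cells held the lower level by 3.25-fold on the deposited scale, or by 2.27-fold with base e. Replicate 3 carried both the lowest Mef2c-deficient and the highest control value, and its pair differed by -2.71, against -1.06 and -1.34 for pairs 1 and 2.

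Top1mt encodes a type I enzyme of mitochondria, and its direction did not hold under other scalings. Probe set 1460370_at had values of 10.54, 10.31 and 11.08 in Mef2c-deficient replicates 1 to 3 and of 11.04, 10.80 and 11.27 in control replicates 1 to 3. The groups overlapped, although same-number pairs differed by -0.51, -0.49 and -0.19, and the difference of -0.40 (SE 0.27) was close to the median of all genes, -0.36. It turned to 0.01 with quantile normalization, 0.03 with cyclic loess and 0.07 when arrays were centred on the genes tested. Top1 minus Top1mt on the same array differed by -1.31 (SE 0.55) between Mef2c-deficient and control cells without overlap, with Mef2c-deficient replicate 3 lowest.

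The Top3 enzymes pass single strands through one another. Top3a, which with Blm and Rmi1 separates linked recombination intermediates, had values of 9.60, 9.96 and 9.27 in Mef2c-deficient replicates 1 to 3 and of 10.17, 10.18 and 9.87 in control replicates 1 to 3 (1418597_at). The groups overlapped, same-number pairs differed by -0.57, -0.22 and -0.60, and the difference was -0.46 (SE 0.23). When arrays were centred on the genes tested this became -0.0017. Top3b, which with Tdrd3 also acts on RNA, had values of 11.70, 11.68 and 10.14 in Mef2c-deficient replicates and of 11.99, 11.82 and 11.96 in control replicates (1448173_a_at). Its groups did not overlap, but the difference of -0.75 (SE 0.52) rested mainly on Mef2c-deficient replicate 3, without which it was -0.23. Top3a minus Top3b differed by 0.29 (SE 0.39) between Mef2c-deficient and control cells, with groups that overlapped.

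The 2 phosphodiesterase genes both had the lower mean in Mef2c-deficient cells. Tdp1, which frees DNA from trapped Top1, had values of 11.00, 10.60 and 9.63 in Mef2c-deficient replicates 1 to 3 and of 12.20, 11.49 and 11.63 in control replicates 1 to 3 (1426492_at). The groups did not overlap, and the difference was -1.36 (SE 0.46). This was 2.57-fold lower in Mef2c-deficient cells on the deposited scale, or 1.92-fold with base e. Tdp2, which frees DNA from trapped type II enzymes, had values of 12.55, 12.89 and 12.01 in Mef2c-deficient replicates and of 13.73, 13.85 and 12.99 in control replicates (1448706_at). The groups were only just apart, with Mef2c-deficient replicate 2 at 12.89 and control replicate 3 at 12.99. The difference was -1.04 (SE 0.37), and the pairs differed by -1.18, -0.95 and -0.97. Tdp1 minus Tdp2 differed by -0.32 (SE 0.41) with overlap.

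Counts over the 9 genes are given beside those over all 11271 genes, and nothing is read from them, since the genes were chosen on this contrast. Of the 9 genes, 8 had the lower mean in Mef2c-deficient cells, against 62.3% of all genes. The groups did not overlap with the Mef2c-deficient arrays lower in 4 of the 9 (Top1, Top3b, Tdp1 and Tdp2; 27.1% of all genes) and higher in 1 (Top2a; 10.6%). Over all genes, limma called 2353 (20.9%) as lower and 600 (5.32%) as higher at an unadjusted p under 0.05, and 2 (0.0177%) as lower and 0 (0%) as higher at a Benjamini-Hochberg adjusted p under 0.05. The median difference was -0.75 over the 9 genes and -0.55 over the 6 topoisomerase genes, against -0.36 over all genes. The balance of calls moved with the scaling: centred on the genes tested, 730 genes lay below and 2278 above control without adjustment of p, while the counts were 1209 below and 1581 above when centred on the kept probe sets, 1247 and 815 with quantile normalization, and 1148 and 931 with cyclic loess.

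**Figure D4:**
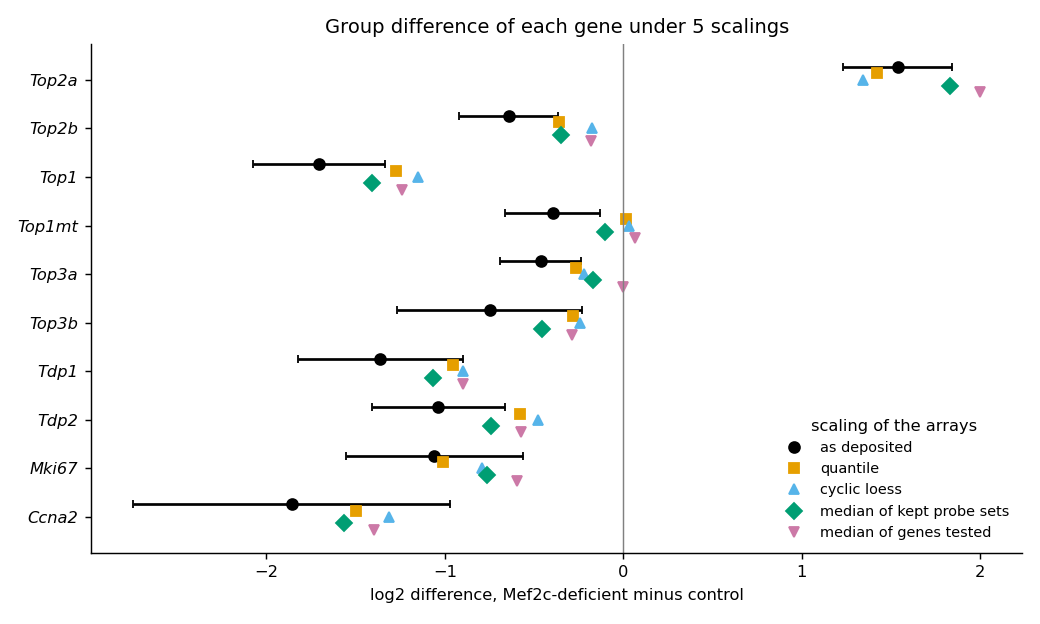
Log2 difference, Mef2c-deficient minus control (horizontal axis), of the 9 genes and Ccna2 (rows) as deposited, with SE, and under 4 other scalings of the arrays. Top2a stayed between 1.34 and 2.0 and Top1 between -1.70 and -1.15, whereas Top1mt reached 0.07 and Top3a -0.0017.

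Under each scaling Top2a stayed on its own side. As deposited and under the 13 alternatives run for it, the Top2a difference stayed positive (1.32 to 2.0 over the alternatives), and those of Top1 (-1.88 to -1.15), Tdp1 (-1.65 to -0.90), Tdp2 (-1.30 to -0.48), Mki67 (-1.48 to -0.60) and Ccna2 (-2.53 to -0.996) stayed negative. Top2a minus the mean of Mki67 and Ccna2 ranged from 2.40 to 3.32.

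The division genes were then counted as a list, to place Top2a beside its programme. This list was chosen with earlier results of these data known. The study had also reported cell cycle genes as enriched among those lower on these arrays. The list is therefore no independent evidence of direction, and the genes named from it are those of smallest p. Of 31 genes in the list, which includes Mki67 and Ccna2, 30 were tested. All 30 had the lower mean in Mef2c-deficient cells (62.3% of all genes), 28 of them with an unadjusted limma p under 0.05 and 0 with an adjusted one, against 20.9% and 0.0177% of all genes. In 25 the groups did not overlap, against 27.1% of all genes. The median difference was -1.86 (range -3.18 to -1.06), against -0.36 over all genes, and Top2a at 1.54 lay outside this range. Cenpf, a kinetochore protein gene, differed most, with values of 10.83, 9.05 and 9.34 in Mef2c-deficient replicates 1 to 3 and of 13.02, 12.99 and 12.76 in control replicates 1 to 3 (difference -3.18, SE 0.56, limma adjusted p = 0.0745). Ndc80, which links kinetochores to microtubules, differed by -2.36 (SE 0.39), Racgap1, which acts in cytokinesis, by -2.38 (SE 0.41), and Bub1b, a spindle checkpoint kinase gene, by -2.0 (SE 0.31), each with a limma adjusted p = 0.0769.

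Genes that build chromosome structure together with Top2a had lower means as well (Kif4 is in this list and in that of division). This list too was chosen with earlier results known and is no independent evidence of direction, and those named have its smallest p. All 15 genes of condensin, cohesin and their partners had the lower mean in Mef2c-deficient cells (62.3% of all genes) and groups that did not overlap (27.1%). At an unadjusted p under 0.05, 13 were lower (20.9% of all genes), with 0 passing the adjustment. Their median difference was -1.60 (range -2.58 to -0.51). Ncaph, a condensin subunit gene, had values of 10.91, 9.22 and 10.32 in Mef2c-deficient replicates 1 to 3 and of 12.89, 12.74 and 12.56 in control replicates 1 to 3 (difference -2.58, SE 0.51, limma adjusted p = 0.0769). Smc2, the ATPase core of condensin, differed by -2.01 (SE 0.31, limma adjusted p = 0.0769) and the condensin subunit gene Ncapg by -2.06 (SE 0.53, limma adjusted p = 0.0941). Rad21, the cohesin subunit that is cleaved when sister chromatids part, differed by -1.60 (SE 0.33, limma adjusted p = 0.0934).

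Partners of topoisomerases and genes that repair trapped enzymes formed the third list, with 19 of 22 genes tested. The study had singled out some of its members, such as Mre11a, Rad50, Xrcc6 and Lig4, on these arrays, which makes the list no independent evidence of direction. In it 18 genes had the lower mean in Mef2c-deficient cells (62.3% of all genes), 12 of them at an unadjusted p under 0.05 (20.9%), and 1 was higher at that p (5.32%), with 0 passing the adjustment. The median difference was -0.90. Rad50 and Mre11a, whose products form a nuclease complex that opens blocked DNA ends, differed by -1.63 (SE 0.31, limma adjusted p = 0.0933) and -1.04 (SE 0.17, limma adjusted p = 0.110). Parp1, which senses strand breaks, differed by -1.03 (SE 0.24, limma adjusted p = 0.124).

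The direct partners also had lower means in Mef2c-deficient cells, with Tdrd3 as the exception. Blm and Rmi1, which work with Top3a, differed by -1.19 (SE 0.30, limma adjusted p = 0.115) and -0.82 (SE 0.24, limma adjusted p = 0.158). Topbp1, named for its binding to a type II topoisomerase, differed by -1.22 (SE 0.60, limma adjusted p = 0.180). Zfp451, whose product works with Tdp2 on trapped type II enzymes, differed by -1.66 (SE 0.74, limma adjusted p = 0.151), with Mef2c-deficient replicate 3 at 7.45 and the others of its group at 9.44 and 9.63. Tdrd3, the partner of Top3b, had values of 9.34, 8.80 and 9.27 in Mef2c-deficient replicates 1 to 3 and of 8.25, 8.42 and 8.20 in control replicates 1 to 3, without overlap (difference 0.85, SE 0.18, limma adjusted p = 0.140). Like Top2a it was dim, and bin 6, with means of 8.57 to 9.60, in which it lay, had a median difference of 0.05.

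The genes whose pattern over the 6 arrays was most like that of Top2a were named by Pearson's r, which mixes the difference between groups with the spread within them and is given as a description. Lysmd2 (r = 0.998), Ddr1 (0.994), Bscl2 (0.988), Ap1m2 (0.986) and Cyp46a1 (0.985) had the highest r, and 159 genes had an r above 0.9. Lysmd2, the closest, had values of 9.36, 8.87 and 9.66 in Mef2c-deficient replicates 1 to 3 and of 7.81, 7.76 and 8.10 in control replicates 1 to 3. Ddr1, a collagen receptor kinase gene, differed by 2.0 and Bscl2, the seipin gene, by 1.80. At the other end Kif2a, a microtubule-depolymerising kinesin gene, had r = -0.997 and a difference of -1.53, Rab23 r = -0.994 and -1.67, and Kat2b, an acetyltransferase gene, r = -0.992 and -1.25. None of the 5 genes most like Top2a was in the 3 lists. Nothing is read from this, since only Tdrd3 among the tested genes of the lists had the higher mean in Mef2c-deficient cells.

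Among the 9 genes the arrays ordered some pairs alike. Over the 6 arrays r was 0.98 between Top2b and Tdp2 and 0.98 between Top2b and Top3a, and 0.89 between Top1 and Tdp1. Tdp2 was the member farthest from Top2a (r = -0.961), and Top1mt the nearest to no relation (r = -0.276). Within the Mef2c-deficient group, replicate 3 stood at -1.04 from its group mean for Top3b, -0.78 for Tdp1 and -0.62 for Top1, and at 0.43 and 0.44 above it for Top2a and Top1mt.

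Markers of other cell types stood highest in Mef2c-deficient replicate 3 for every list but that of plasma cells, and those of plasmacytoid dendritic cells were higher in the Mef2c-deficient array of each pair. Plasmacytoid dendritic markers (8 of 10 measured) summed to log2 values of 18.89, 18.81 and 20.48 in Mef2c-deficient replicates 1 to 3, against 18.12, 17.38 and 18.81 in control replicates 1 to 3. These sums lean on bright genes such as Ly6d, and 7 of the 8 were higher in the Mef2c-deficient array of every pair. Siglech, which defines these cells, had values of 14.41, 16.55 and 18.54 in Mef2c-deficient and 12.59, 12.51 and 15.53 in control replicates 1 to 3. Neutrophil markers (8 of 8) summed to 17.15, 15.49 and 20.30 in Mef2c-deficient and to 16.55, 15.06 and 17.45 in control replicates. Monocyte markers (5 of 5) summed to 16.67 to 18.55 in Mef2c-deficient and 16.40 to 16.71 in control arrays. The monocyte sums lean on Ctss, at 16.61, 17.85 and 17.61 in Mef2c-deficient and 16.30, 16.56 and 16.33 in control replicates 1 to 3. Of the 5, 3 were higher in the Mef2c-deficient array of every pair. Lyz2 was lower in Mef2c-deficient replicates 1 and 2 (11.29 and 10.20) than in every control array (12.15, 12.03 and 14.24). Mpo, a gene of the neutrophil list, stood at 15.25 in Mef2c-deficient replicate 3 and between 5.81 and 8.80 on every other array. The array values have no true 0. T cell markers (3 of 5) summed to 9.46 to 11.88 in Mef2c-deficient and 8.80 to 9.71 in control arrays, and NK cell markers (3 of 4) to 8.29 to 12.03 in Mef2c-deficient and 8.75 to 10.66 in control arrays. Erythroid markers (4 of 6) summed to 9.04 to 11.33 in Mef2c-deficient and 8.63 to 9.45 in control arrays. Plasma cell markers (4 genes measured) summed to 15.42 to 16.03 in Mef2c-deficient and 15.56 to 15.95 in control arrays.

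Without both replicates 3, an alternative chosen after seeing the data, the Top2a difference was 1.49, against 1.54 over all arrays. Top2a minus the mean of Mki67 and Ccna2 was 3.3 without them, and the median of the division list was -2.26. Top1 differed by -1.20 and Tdp1 by -1.04 without them, against -1.70 and -1.36 over all arrays, and Top3b by -0.21 against -0.75. The groups then did not overlap in 8 of the 9 genes with the Mef2c-deficient arrays lower, in place of 4. With 2 arrays a group, 41.2% of all genes met this, against 27.1% with 3. Control replicate 3 held the lowest control values of Top2b, Top3a, Tdp2 and Mki67, and Mef2c-deficient replicate 3 the highest value of its group for Top1mt. Leaving out these arrays does not remove the difference in plasmacytoid dendritic markers, and the part of other cell types in these differences was not tested.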

How the data were processed

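RNA of sorted pre-B cells was hybridised to Affymetrix Mouse Genome arrays, 3 per group. Groups and replicate numbers follow the labels. The authors deposited intensity values of 23913 probe sets on a linear scale, after background adjustment, quantile normalization and summary by robust multiarray averaging (RMA), with versions not given in the sources used here. The highest deposited value is 2144602 (log2 of 21.03, natural log of 14.58), and the base of the exponent was not settled here. With base e each difference would be 0.693 times that printed.

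Deposited values were transformed to log2 with no offset. Probe sets with 1 symbol in the platform's annotation (17690) were named, while 524 with several symbols and 5699 with none stayed out. The 25 control probe sets fall within these classes and were left out as well. A probe set was tested if its mean log2 exceeded the 40th percentile of all probe sets (7.26), with the brightest kept for each gene. Groups were compared with limma 3.58.1 (R 4.3.3), two-sided, with Benjamini-Hochberg adjustment over 11271 genes. The scripts were tested on simulated data. Precision is limited by the number of arrays.

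The genes described and the lists (division, chromosome structure, partners and adduct repair, cell type markers) were chosen with earlier results of these data known. Named from each list were the 4 genes of smallest p, 5 partner genes, and the 5 genes most and 3 least like Top2a. Arrays of the same number deviated together from their group means (r across genes of 0.348, 0.226 and 0.373, against -0.309 to 0.129 for other pairs), and a second fit held that number as a block. Other scalings, filters, an offset of 16, variance models, array weights, the methods' t-test and left-out arrays were alternatives. Detection calls, which the study used as a filter, were not used here.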

Additional observations from a re-analysis of the deposited data

How the results depend on the processing

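The Top2a difference moved beyond the spread of replicates under 1 of 13 alternatives, to 2.0 when arrays were centred on the genes tested, a setting chosen after seeing the data. Top2a minus the mean of Mki67 and Ccna2 moved under 1, to 2.40 with cyclic loess. Leaving out arrays gave Top2a differences of 1.32 to 1.77. The sign of Top1mt turned to 0.013 with quantile normalization, 0.031 with cyclic loess and 0.066 when centred on the genes tested, and the other genes kept theirs under the 13. The median of all genes was -0.36 as deposited, -0.10 with quantile normalization, -0.04 with cyclic loess, -0.07 centred on the kept probe sets and 0.10 centred on the genes tested. The count of lower genes whose groups did not overlap, 4 of the 9, was 1 with quantile normalization, cyclic loess or centring on the genes tested (15.9%, 14.3% and 10.4% of all genes, against 27.1% as deposited), 2 with centring on the kept probe sets (15.7%) and 4 to 8 with arrays left out (7 without control replicate 3, 8 without both replicates 3). Fewer arrays raise this count for all genes, to 29.6% to 37.5% with 1 array left out and 41.2% with both replicates 3 left out.

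Over all genes, those lower at an adjusted p under 0.05 (2) numbered 0 with quantile normalization, cyclic loess, either centring, the replicate block and the methods' t-test, 1001 with array weights and 0 to 231 with arrays left out (231 without Mef2c-deficient replicate 3, 10 without its replicate 1, 1 without its replicate 2, and 0 without each control replicate in turn). Those higher (0) numbered 153 with array weights and 0 to 10 with arrays left out. At an unadjusted p under 0.05, lower genes (2353) numbered 1247 with quantile normalization, 1148 with cyclic loess, 1209 and 730 with centring on kept probe sets and genes tested, and 1382 to 2677 with arrays left out (1382 without control replicate 1). Higher genes (600) numbered 931 with cyclic loess, 1581 and 2278 with the centrings, 1445 with no filter, 249 with a 60th percentile filter, 1005 with array weights and 242 to 789 with arrays left out. With the replicate block 2599 genes were lower and 757 higher without adjustment, and the block left the differences of the 9 genes as they were by construction. The cause of these shifts was not tested.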
